A study of Mus musculus with 21 samples.

Results

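Foxa3 binding was compared between the start of reprogramming and the established state, in fibroblasts given Foxa3 together with Hnf4a. The members are all peaks of 2 lists, taken by sample title: 5690 peaks from cells 48 hours after infection and 12661 peaks from established hepatocyte-like cells. Together these are 18351 of the 53537 peaks in the 13 lists of the series. A peak is a stretch of the genome enriched in chromatin pulled down by an antibody, here one against Foxa3, and read out by sequencing (ChIP-seq). A 48-hour peak was called kept when it shared at least 1 bp with an iHep peak and lost otherwise. An iHep peak was called kept when it shared at least 1 bp with a 48-hour peak and gained otherwise.

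The 48-hour sample was made from mouse embryonic fibroblasts of the C57BL/6 strain, infected with retroviruses for Foxa3 and Hnf4a. The iHep sample carried the same 2 factors in cells of the same strain at the stage of hepatocyte-like (iHep) cells, although its cell type label still reads fibroblasts. Hnf4a was therefore present in both groups, and no fibroblasts without the factors were analysed here. Each group is 1 library, so no spread between libraries exists and no p-values are given. The titles carry the code R209 at 48 hours and R170 in iHep cells, and the number 1 against 3, so stage and code cannot be told apart. The names of the peaks in both files carry Foxa3, as the sample labels do. Markers of the cell types cannot be read from peak positions, so the cell labels were not checked.

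Foxa3 is a forkhead transcription factor, 1 of a family that also holds Foxa1 and Foxa2. Its forkhead domain binds DNA as a winged helix, and Foxa proteins are known for binding sites in closed chromatin ahead of other factors, in liver as in other tissues of endodermal origin. Hnf4a is a nuclear receptor that drives many genes of the hepatocyte. All positions are on the mouse build mm9 with the first base counted as 1. No gene was assigned to them and no sequence is printed, since no genome or annotation of that build was used here.

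Of the 48-hour Foxa3 peaks 4223 were kept and 1467 were lost, a kept share of 74.2% (95% Wilson interval 73.1% to 75.3%). Of the iHep peaks 5548 were kept and 7113 were gained, a kept share of 43.8% (43.0% to 44.7%). Such intervals hold the counting error alone, and peaks that lie side by side are not independent of each other. Few peaks lay at the edge of the rule. Among kept 48-hour peaks 13 shared at most 10 bp with iHep peaks in all, 36 at most 50 bp and 4129 over 100 bp, with a median of 344 bp. Among lost peaks 2 had an iHep peak within 10 bp, 28 within 50 bp and 172 within 500 bp. Gained peaks lay near the edge more often, with 37 within 10 bp of a 48-hour peak, 191 within 50 bp and 1274 within 500 bp.

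The 2 lists differ in the size of their peaks, which bears on every overlap below. No 48-hour peak was narrower than 334 bp, and 167 peaks had exactly that width. In the iHep list the narrowest width was 166 bp and 662 peaks had it. The smallest gap between neighbouring peaks was 52 bp in both lists. Of the iHep peaks 8429 (66.6%) were narrower than any 48-hour peak. Median widths were 538 bp at 48 hours and 248 bp in iHep cells, while the total covered length was 3.79 Mb and 4.55 Mb. In the other Foxa lists the narrowest widths were 310 to 326 bp, so the iHep Foxa3 list had by far the narrowest minimum of the 6. The depth of the libraries is unknown, and its part in the numbers of peaks was not tested.

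Kept peaks carried the higher scores at both stages. The score is a number per peak that the authors deposited, used here only to rank peaks within 1 list. At 48 hours the median score was 15.8 (interval of the median 15.6 to 16.2) for kept peaks and 11.9 (11.6 to 12.0) for lost peaks. The middle 50% of kept peaks ran from 11.9 to 22.9 and that of lost peaks from 9.58 to 15.4, so the classes overlapped widely. In the iHep list they were 18.7 (18.4 to 18.9) for kept and 12.4 (12.2 to 12.5) for gained peaks, with middle ranges of 13.5 to 26.0 and 9.44 to 16.9.

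The kept share rose through all 10 score groups of equal size in both lists. At 48 hours it was 55.0% (50.9% to 59.0%) in the lowest 10% of scores and 74.7% in the fifth group. It went on through 77.5%, 84.0% and 85.2% to 88.6% in the ninth and 89.5% (86.7% to 91.7%) in the highest group, and the intervals of the last 2 overlap. In the iHep list it was 16.5% (14.6% to 18.6%) in the lowest group, 39.4% in the fifth, 67.9% in the ninth and 81.4% (79.1% to 83.4%) in the highest, with its largest step at the top. Of the 100 iHep peaks with the highest scores 97 were kept, and of the 100 48-hour peaks with the highest scores 93 were kept. Among the 1000 highest the counts were 831 in the iHep list and 891 in the 48-hour list.

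**Figure D1:**
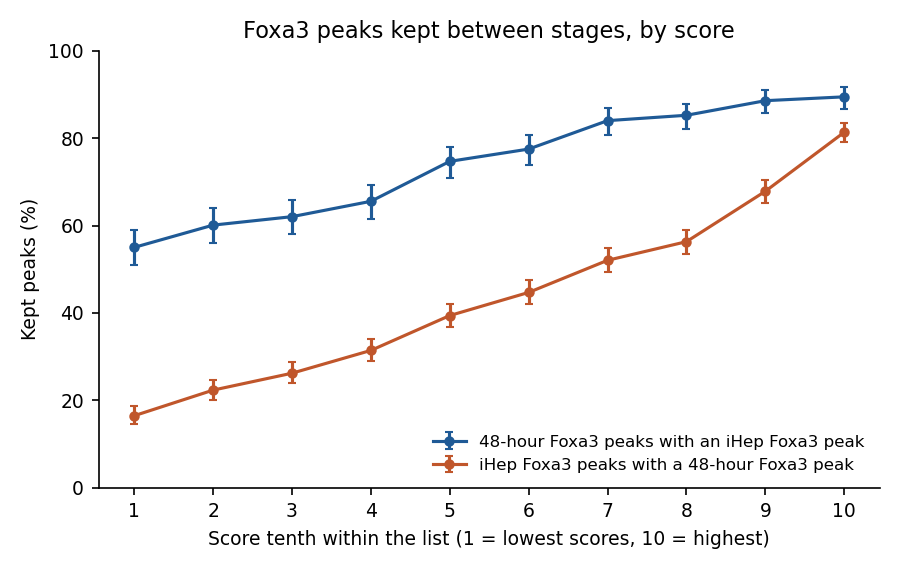
Share of kept Foxa3 peaks (y axis, percent) in 10 score groups of equal size within each list (x axis), for 48-hour peaks (blue) and iHep peaks (orange); bars are 95% Wilson intervals. The 48-hour share goes from 55.0% to 89.5%, and the iHep share goes from 16.5% to 81.4%.

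The order of scores was only partly carried over between the stages. Across the 4223 kept 48-hour peaks, Spearman's rho between the 48-hour score and the highest iHep score on that peak was 0.41. It is a description across peaks of 2 libraries, with no test, and ranks in lists of unequal length do not by themselves show a change. Of the 1058 kept peaks in the upper 25% of 48-hour scores, 50.2% were also in the upper 25% by iHep score. Of the 1055 in the lowest 25%, 11.4% were. The 100 highest kept peaks by each measure had 40 peaks in common.

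Of the single peaks named here from the top of each list, all but a chromosome 9 peak stood high in both. The highest score, 535, belonged to the 1435 bp peak chr11:87236025-87237459, and the iHep peak on it was 1272 bp wide and ranked 163 of 12661. The next, chr9:65043230-65044827 (score 522), held 3 iHep peaks, and the best of them ranked only 3573. It also lay under iHep Hnf4a peaks of all 3 lines. The third, chr12:55838462-55839998, held 2 iHep peaks with a best rank of 38. This peak, too, overlapped iHep Hnf4a peaks of all 3 lines, and also 48-hour Foxa2 and Hnf4a peaks of the Foxa2 line. From the other side, the 3 highest iHep peaks that were kept ranked 45, 104 and 63 of 5690 at 48 hours. Their positions were chr11:115884470-115885880, chr11:106648929-106649861 and chr5:125865928-125871103.

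A few strong 48-hour peaks were lost. The highest was the 1211 bp peak chr4:116862219-116863429 (score 339), which ranked 17 of 5690. The nearest iHep Foxa3 peak was 33283 bp away. It was followed by the 4981 bp peak chr5:91187975-91192955 (score 214) and the 1083 bp peak chr8:32259904-32260986 (score 171). Their nearest iHep peaks were 375698 bp and 17942 bp away. None of these 3 overlapped a peak of the other 10 lists set against them, which held for 90.6% of all lost peaks.

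Width and score were linked within each list, with a Spearman's rho of 0.58 at 48 hours and 0.41 in iHep cells across all peaks. Kept peaks were wider. Median widths were 573 bp for kept and 455 bp for lost 48-hour peaks, while kept iHep peaks had a median of 310 bp and gained ones were 85 bp narrower at the median. A wide peak also meets an overlap rule more easily. When peak centres within 200 bp were required in place of overlap, kept 48-hour peaks were narrower than lost ones by a median of 28 bp, so the direction of the 48-hour width difference depends on the rule.

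Within score groups the kept shares of 48-hour peaks differed less by width. In the highest 25% of scores, 86.6% of the peaks in the third width group (418 peaks) and 89.1% of the widest (792 peaks) were kept, with overlapping intervals. In the lowest 25% of scores 54.5% (50.9% to 58.1%) of the narrowest and 70.2% (59.8% to 79.0%) of the widest peaks were kept. In the iHep list width still ordered the strong peaks. Among the highest 25% of iHep scores 52.7% (44.7% to 60.7%) of the narrowest and 80.3% (78.3% to 82.2%) of the widest peaks were kept.

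A 48-hour Foxa3 peak often corresponded to several iHep peaks. Of the 4223 kept 48-hour peaks 2984 overlapped 1 iHep peak, 1085 overlapped 2, 137 overlapped 3, 14 overlapped 4 and 3 overlapped 5. The share with 2 or more was 29.3% (28.0% to 30.7%). The reverse was rare, since 81 iHep peaks overlapped more than 1 48-hour peak: 76 overlapped 2, 3 overlapped 3 and 2 overlapped 4. For Foxa1 in its own line 3 of 2087 kept peaks (0.144%, 0.0489% to 0.422%) and for Foxa2 4 of 2148 (0.186%, 0.0724% to 0.478%) overlapped 2 or more iHep peaks. The Foxa3 interval lies above those of the others, but line, antibody and title code differ as well, and no test over libraries is possible.

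The number of iHep peaks on a 48-hour peak followed the width of that peak. Median 48-hour widths rose from 455 bp with no iHep peak to 767 bp with 2, 1286 bp with 3 and 2515 bp with 4. Among kept peaks of 334 to 409 bp, the narrowest 25% of the list, 6.01% (4.62% to 7.78%) held 2 or more iHep peaks. Among those of 765 bp or more 58.1% (55.3% to 60.9%) did. By score the same share rose from 17.8% in the lowest 25% to 42.5% in the highest. Widening all iHep peaks under 334 bp to that width about their centres, and merging those that then met, left 12106 iHep peaks. With these, chosen after seeing the data, the share was 27.5%. Joining the peaks of each list that lie within 500 bp lowered it to 1.13%, as joining removes neighbours by construction.

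Where a 48-hour peak held 2 iHep peaks, their positions can be described. Among 1035 48-hour peaks with 2 iHep peaks that touched no other 48-hour peak, the centres of the pieces fell on opposite sides of the 48-hour centre in 960 (92.8%). This share is largely set by the choice of peaks, since 2 separate peaks that overlap the same peak will mostly lie on opposite sides of its centre. The median offsets were -248.5 bp and 250 bp, and the median distance between the 2 centres was 475.5 bp (middle 50%, 383.5 to 617.8 bp). The gap between the pieces had a median of 141 bp and ranged from 52 to 817 bp. The 48-hour centre lay in that gap in 445 cases (43.0%, 40.0% to 46.0%) and within a piece in 55.8%. With the 2 pieces of each peak sorted by score, the median score was 23.2 for the higher and 13.8 for the lower. The median ratio within a peak was 1.55. Sorting sets this order by construction, and no other pairs of iHep peaks were compared. Whether the pieces differ more than other neighbouring peaks was therefore not tested.

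Where 1 peak met 1 peak, the positions agreed more closely. In these 2879 pairs the centres were a median of 92.5 bp apart, 53.2% lay within 100 bp and 20.8% were over 200 bp apart. The 48-hour centre lay inside the iHep peak in 77.3% of pairs. Median widths were 501 bp at 48 hours and 338 bp in iHep cells. Over all overlapping pairs the iHep peak had a median of 0.50 times the 48-hour width in the Foxa3 line, against 0.90 for Foxa1 and 1.11 for Foxa2. The median centre shifts were 171 bp, 29.3 bp and 38.5 bp in the same order. The Foxa3 values include many pairs from 48-hour peaks with several iHep peaks, which were rare for Foxa1 and Foxa2. In Foxa3 pairs of 1 and 1 alone the shift was the 92.5 bp given above.

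**Figure D2:**
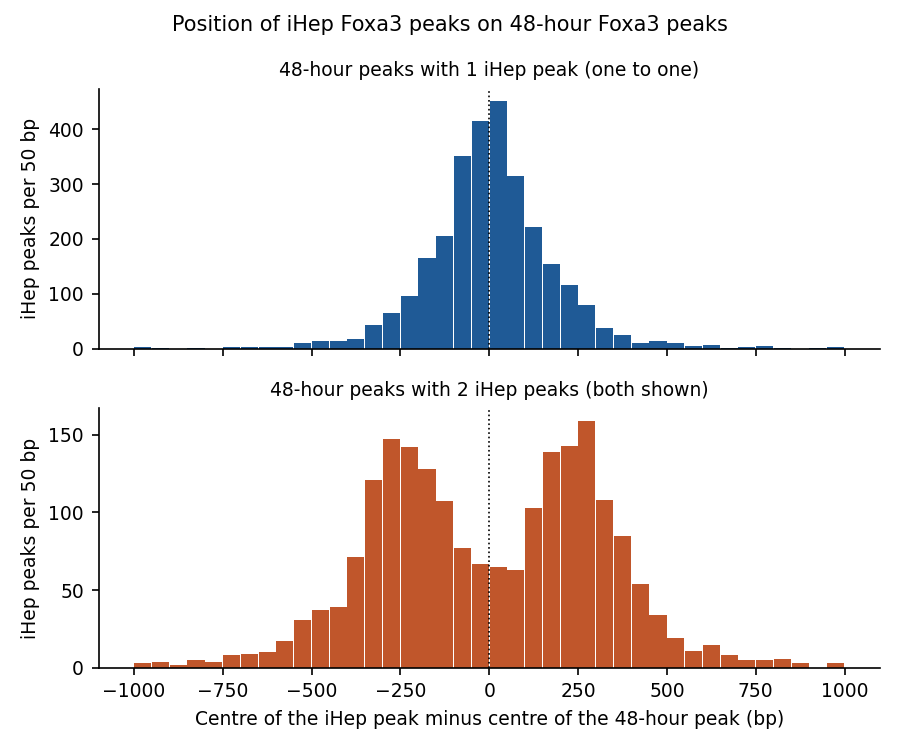
Centre of the iHep Foxa3 peak minus centre of the 48-hour Foxa3 peak it overlaps (x axis, bp), as numbers of iHep peaks per 50 bp (y axis), for 2879 pairs of 1 and 1 (top) and for both iHep peaks on 1035 48-hour peaks with 2 (bottom). The top panel has 1 mode near 0, and the bottom panel has a mode on each side, near the median offsets of -248.5 bp and 250 bp; offsets beyond 1000 bp, 14 in the top and 13 in the bottom panel, are not drawn.

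The 3 48-hour peaks with 5 iHep peaks were all long. The first, chr19:5837310-5845929, spanned 8620 bp and ranked 32 at 48 hours with a score of 199.5. Its 5 iHep peaks were very unequal: 4 of 191 to 332 bp with scores of 9.64 to 14.4 lay at the low-coordinate end. The fifth, chr19:5839239-5846179, covered 6941 bp and ranked 4 in the iHep list with a score of 90.0. The second, chr12:81207095-81214298, spanned 7204 bp (score 172), and its iHep peaks scored 12.2 to 27.8. The third, chr13:21900655-21904389, spanned 3735 bp (score 143). Its iHep peaks scored 7.65 to 49.6, with the highest at the high-coordinate end. At the first 2 of these loci a piece also overlapped an iHep Hnf4a peak of the line.

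Gained peaks fell into a group close to kept peaks and a larger group far from them. The gap to the nearest kept iHep peak was at most 500 bp for 1268 of the 7113 gained peaks (17.8%). It was over 500 bp and up to 2 kb for 613 (8.62%), 2 to 10 kb for 666 (9.36%), 10 to 100 kb for 2212 (31.1%) and over 100 kb for 2354 (33.1%). The median gap was 37.2 kb. Within 2 kb lay 26.4% (25.4% to 27.5%) of gained peaks. The size of this share depends on the lists: it was 8.82% after joining the peaks of a list within 500 bp, 7.44% in the upper 50% of each list by score and 12.7% with lists of equal length, and the Foxa1 and Foxa2 shares were not recomputed under these settings. Of gained Foxa1 peaks 1.41% (0.906% to 2.19%) lay that close and of gained Foxa2 peaks 1.56% (1.32% to 1.86%), while 70.7% and 70.5% lay over 100 kb away. These distances also depend on the number of kept iHep peaks, which was 5548 for Foxa3, 2089 for Foxa1 and 2148 for Foxa2. Seen from the early list, 9.61% (8.21% to 11.2%) of lost Foxa3 peaks lay within 2 kb of a kept 48-hour peak and 46.6% lay over 100 kb from one.

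Close neighbours were frequent in the whole iHep Foxa3 list. Of its peaks 58.2% had another peak of the list within 500 bp, against 14.5% in the 48-hour Foxa3 list and 0.873% to 2.23% in the 4 Foxa1 and Foxa2 lists. The iHep Hnf4a list of the same line, which shares the code R170, stood at 30.9%, and the iHep Hnf4a lists of the other lines at 2.22% and 2.86%. Close neighbours were also frequent in the short 48-hour Hnf4a lists, at 45.9% for the Foxa3 line and at 48.1% and 52.4% for those of Foxa2 and Foxa1, none of which carries R170. Whether the code or the way the peaks were called moves this was not tested.

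Counted as runs of iHep peaks with gaps of up to 2 kb, the 12661 peaks formed 7368 runs. Of these 2599 (35.3%) held kept peaks alone, 1256 (17.0%) held kept and gained peaks, and 3513 (47.7%) held gained peaks alone. Of the 2086 gained peaks in mixed runs, 29.3% of all gained peaks, 137 (6.57%) lay between the outermost kept peaks of their run. This share is largely set by the classes. A run with a single kept peak has no place between kept peaks. An iHep peak between kept peaks on the same 48-hour peak would itself be called kept. In 1082 of the 1256 mixed runs (86.1%, 84.1% to 87.9%) the best kept peak scored above the best gained peak.

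The gained peaks with the lowest scores were those at an intermediate distance. Median scores were 11.4 (11.0 to 11.8) within 500 bp of a kept peak, 9.86 (9.68 to 10.2) from over 500 bp to 2 kb and 10.6 (10.3 to 11.1) from 2 to 10 kb. Beyond that they were 13.6 (13.2 to 13.8) from 10 to 100 kb and 13.5 (13.1 to 13.7) over 100 kb. The upper 25% of iHep scores held 92 of the 1268 gained peaks within 500 bp (7.26%), 363 of those at 10 to 100 kb (16.4%) and 362 of those over 100 kb away (15.4%). Median widths differed little, from 217 to 235 bp.

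**Figure D3:**
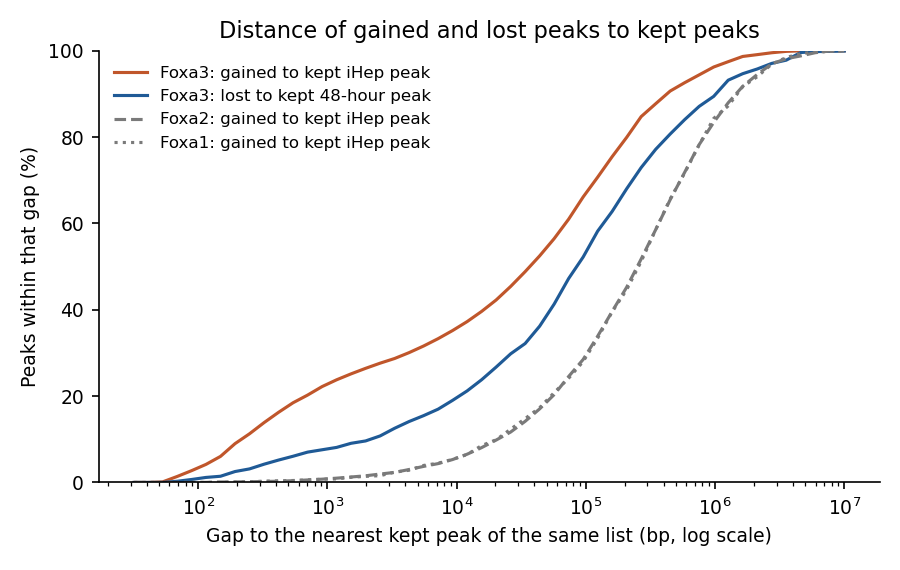
Share of peaks (y axis, percent) whose gap to the nearest kept peak of the same list is at most the value on the x axis (bp, log scale), for gained (orange) and lost (blue) Foxa3 peaks and for gained Foxa1 and Foxa2 peaks (grey). At 2 kb the gained Foxa3 curve stands at 26.4%, the lost Foxa3 curve at 9.61% and the Foxa1 and Foxa2 curves at 1.41% and 1.56%. After joining peaks within 500 bp the gained Foxa3 share at 2 kb was 8.82%. Kept iHep peaks numbered 5548 for Foxa3, 2089 for Foxa1 and 2148 for Foxa2.

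Single gained loci covered both kinds. The highest scoring gained peak was the 5899 bp peak chr18:43891747-43897645, with a score of 61.8 and rank 46. It lay 1456 kb from the nearest kept peak and overlapped iHep Hnf4a peaks of all 3 lines. The next, chr14:63380211-63381111 (score 54.7), lay 56 bp from a 48-hour peak. The third, chr8:125566458-125567306 (score 51.4), was 21698 bp from the nearest 48-hour peak. After the chromosome 18 peak, the highest gained peaks over 100 kb from any kept peak were chr9:77602225-77604528 (score 49.6) and chr3:51906237-51907416 (score 48.8).

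The longest stretch of gained peaks with no kept peak between them, chr4:11085833-11103162, held 20 peaks over 17330 bp, inside a run that also held kept peaks. Its scores reached 17.8, and a 48-hour peak lay 1888 bp from it. Stretches of 14 gained peaks were chr6:52198052-52210124 and chr6:48779999-48792113, over 12073 and 12115 bp. The first was 868 bp from a 48-hour peak and the second 227687 bp from one. Both overlapped an iHep Hnf4a peak of the line, as did 6.17% of all gained peaks taken singly. A stretch of 14 peaks has more places to meet one. None of these 3 stretches overlapped a Foxa1 or Foxa2 peak at either stage, and only 2.88% of all gained peaks did.

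Kept, lost and gained peaks were spread over the same 20 chromosomes. Across them the density of 48-hour and iHep peaks, per Mb up to the last peak of any list, had a Spearman's rho of 0.97, given as a description. Chromosome 11 was the densest, with 4.10 peaks per Mb at 48 hours and 9.32 in iHep cells, and chromosome X the sparsest, with 0.60 and 1.10. On the autosomes the kept share of 48-hour peaks ran from 68.6% (63.2% to 73.4%) on chromosome 3 to 77.4% (71.1% to 82.6%) on chromosome 12. The interval held the share of all autosomes, 74.5%, on 18 of 19.

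Chromosome X kept the smallest share, with 60 of 100 48-hour peaks (60.0%, 50.2% to 69.1%) and 64 of 183 iHep peaks (35.0%, 28.4% to 42.1%). Its 48-hour peaks also had lower scores, with a median of 12.1 against 14.7 on the autosomes. Of its 100 peaks 70 were in the lower 50% of scores, where 55.7% were kept against 63.7% on autosomes, and 30 in the upper 50%, where 70.0% were kept against 85.1%. The autosomes differed more in the iHep share, where chromosome 6 stood lowest with 36.5% (33.0% to 40.1%) and chromosome 16 highest with 51.8% (46.9% to 56.6%), around 43.9% for all autosomes. Chromosome 6 held 2.61 iHep peaks per 48-hour peak and chromosome 16 held 1.95.

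**Figure D4:**
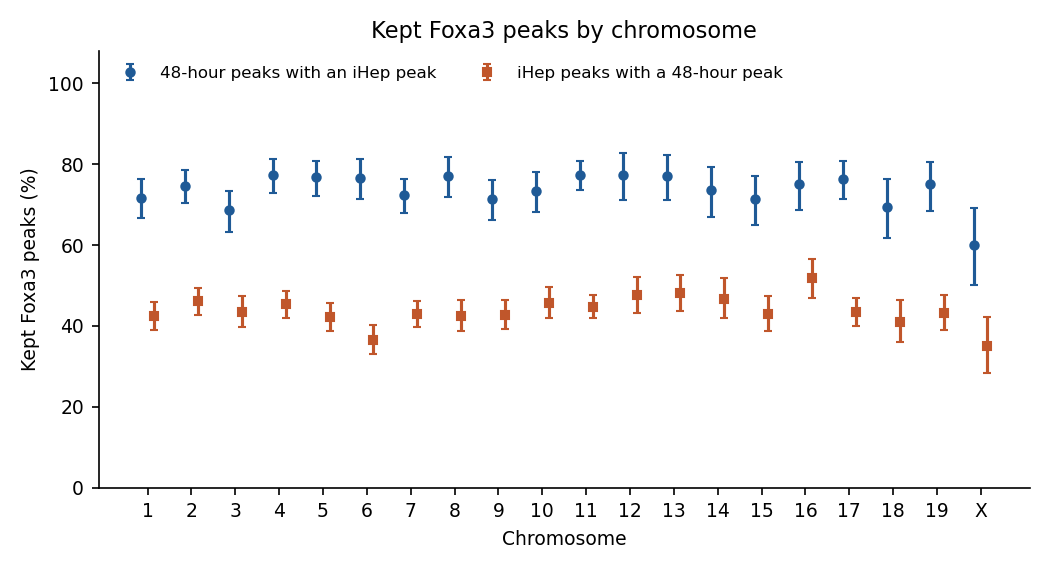
Share of kept Foxa3 peaks (y axis, percent) on each chromosome (x axis), for 48-hour peaks (blue circles) and iHep peaks (orange squares); bars are 95% Wilson intervals. Chromosome X stands lowest in both lists, at 60.0% and 35.0%, and chromosome 6 is the lowest autosome in the iHep list at 36.5%.

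Overlap with the other factors was not used to form the classes. Lost peaks were more often at sites of Foxa1 and Foxa2 than kept peaks. At 48 hours 1.83% of all Foxa3 peaks overlapped a Foxa1 peak, and this held for 22 of 4223 kept peaks (0.521%, 0.344% to 0.788%) and 82 of 1467 lost peaks (5.59%, 4.53% to 6.89%). For Foxa2 the share was 3.16% of all Foxa3 peaks, 84 kept peaks (1.99%, 1.61% to 2.46%) and 96 lost peaks (6.54%, 5.39% to 7.93%). Both Foxa1 and Foxa2 were found at 1.65% of all 48-hour Foxa3 peaks, 78 lost (5.32%) and 16 kept peaks (0.379%). Of the 190 48-hour Foxa3 peaks at a Foxa1 or Foxa2 peak 47.4% (40.4% to 54.4%) were kept, against 75.1% (74.0% to 76.3%) of the 5500 others.

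The order was the same in each of 4 score groups of equal size, and the difference was largest among high scores. In the upper 25% of 48-hour scores 30 of 163 lost peaks (18.4%, 13.2% to 25.1%) and 40 of 1260 kept peaks (3.17%, 2.34% to 4.29%) were at a Foxa1 or Foxa2 peak. In the lowest 25% the counts were 22 of 590 (3.73%) and 16 of 833 (1.92%). Some of these sites appear in many lists, as 0.65% of all 48-hour Foxa3 peaks, 29 lost (1.98%) and 8 kept peaks (0.189%), overlapped 5 or more of the 10 other lists. Leaving out the 55 Foxa3 peaks at a 48-hour Hnf4a peak, chosen after seeing the data, gave 5.14% of lost and 2.07% of kept peaks at a 48-hour Foxa1 or Foxa2 peak. The Foxa2 library shares the code R209 with the 48-hour Foxa3 library and the Foxa1 library does not.

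Hnf4a of the established cells of the same line showed the opposite order. By definition a kept peak holds an iHep Foxa3 peak and a lost peak holds none. Of all iHep Foxa3 peaks 6.93% overlapped an iHep Hnf4a peak of the line. The order below therefore cannot be told apart from the presence of an iHep Foxa3 peak. Kept peaks were also wider, with medians of 573 bp against 455 bp, and width was not held fixed. Of all 48-hour Foxa3 peaks 7.03% overlapped an iHep Hnf4a peak of the line, with 381 of 4223 kept peaks (9.02%, 8.19% to 9.92%) and 19 of 1467 lost peaks (1.30%, 0.831% to 2.01%). In other words 95.3% (92.7% to 96.9%) of the 400 48-hour peaks at a later Hnf4a peak were kept, against 72.6% (71.4% to 73.8%) of the rest. The order was the same in each score group. In the lowest 25% of scores 7.08% of kept and 1.19% of lost peaks lay at an iHep Hnf4a peak, and in the highest 25% 11.9% and 2.45% did. The iHep Hnf4a lists of the other lines did not set an order, as their intervals overlapped. For the Foxa1 line the shares were 1.78% (1.42% to 2.22%) of kept and 0.954% (0.569% to 1.60%) of lost peaks. For the Foxa2 line they were 2.34% (1.93% to 2.85%) and 3.14% (2.36% to 4.16%). The iHep Hnf4a and Foxa3 libraries of the Foxa3 line carry the same code, and the part of this in the overlap was not tested. The 48-hour Hnf4a list of the line met 0.58% of all 48-hour Foxa3 peaks, 6 of 4223 kept peaks (0.142%, 0.0651% to 0.310%) and 27 of 1467 lost peaks (1.84%, 1.27% to 2.66%).

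Gained Foxa3 peaks were somewhat less often at Hnf4a than kept ones. In iHep cells 6.93% of all Foxa3 peaks overlapped an Hnf4a peak of the line, with 438 of 5548 kept peaks (7.89%, 7.21% to 8.63%) and 439 of 7113 gained peaks (6.17%, 5.64% to 6.76%). Gained peaks stood higher in the lower 3 of the 4 score groups and kept peaks in the highest. The intervals overlapped in all but the lowest group. In the lowest 25% of iHep scores gained peaks were at Hnf4a in 4.67% (3.92% to 5.57%) and kept peaks in 2.18% (1.31% to 3.63%) of cases. In the highest 25% the shares were 9.57% (7.81% to 11.7%) and 12.6% (11.3% to 14.0%). Centres within 200 bp were also required, both for the classes and for the match to Hnf4a. The shares were then 5.18% (4.75% to 5.64%) for gained and 4.59% (3.91% to 5.37%) for kept peaks. These intervals overlap, so the order is not set under that rule. Joining the peaks of a list within 500 bp widened the difference, to 6.74% for gained and 11.7% for kept peaks, and joining within 2 kb gave 7.30% and 12.6%. The share varied little with the distance of a gained peak from a kept one, from 5.15% (4.31% to 6.16%) at 10 to 100 kb to 7.99% (6.10% to 10.4%) at over 500 bp to 2 kb.

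**Figure D5:**
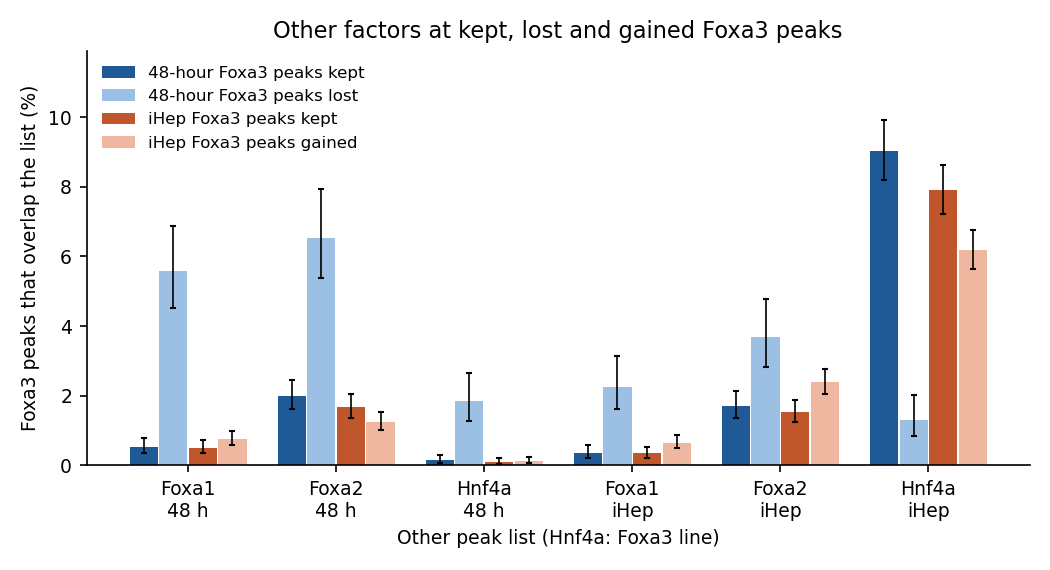
Share of Foxa3 peaks (y axis, percent) that overlap each of 6 other peak lists (x axis), for 48-hour peaks kept and lost (dark and light blue) and iHep peaks kept and gained (dark and light orange); bars are 95% Wilson intervals. Lost peaks stand highest at the 48-hour Foxa1 and Foxa2 lists (5.59% and 6.54%). They stand low at iHep Hnf4a of the Foxa3 line (1.30%), where kept 48-hour peaks reach 9.02%.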

How the data were processed

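ChIP-seq peak lists of 12 libraries were used, 1 per group. The list of the del2 mutant was not used here, and inputs were not analysed here. BWA 0.6.2, bedtools 2.16.2, MACS2 2.1.0 and the build mm9 stand, with no role given, in the submitters' processing notes. The score of each peak is as deposited by the authors, with no account of its calculation, so score values were compared within a list alone and set side by side between lists by rank. Use of inputs in peak calling is likewise not given in the sources used here. Depth is unknown.

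Peaks were classed by overlap of at least 1 bp. Gaps are the bases between peak edges. Shares carry 95% Wilson intervals and medians order-statistic intervals. The code was tested on simulated data. Regions named are the 3 highest scores of each class, the 3 48-hour peaks with the most iHep peaks, the 3 longest gained runs, the 3 highest gained peaks over 100 kb from kept peaks, and the extreme chromosomes. Members and lists were chosen with earlier results of these data known. Calculations ran in Python 3.11.15 with SciPy 1.17.1, pandas 2.3.3 and NumPy 2.4.6, and plots in matplotlib 3.10.9.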

Additional observations from a re-analysis of the deposited data

Results flagged for a closer look

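Kept and lost peaks differed in their overlap with the other Foxa proteins at 48 hours, with opposite signs in the Foxa2 and Foxa3 lines. In the Foxa3 line the share of kept peaks at a 48-hour peak of another Foxa protein was below that of lost peaks, a difference of -4.69 percentage points (2.13%, interval 1.74% to 2.61%, against 6.82%, 5.64% to 8.22%). In the Foxa2 line the difference was 46.1 points (78.1%, 76.3% to 79.8%, against 32.0%, 30.7% to 33.4%). Most of it lay at Foxa1 peaks, with 76.5% of kept and 30.9% of lost peaks, while Foxa3 peaks stood at 4.14% and 1.54%. In the Foxa1 line it was 2.39 points (47.6%, 45.4% to 49.7%, against 45.2%, 43.8% to 46.6%), and since these intervals overlap its direction is not set. Of all 48-hour Foxa3 peaks 3.34% were at another Foxa protein, far below the shares in the other lines. The sizes of the differences in points therefore cannot be set against each other. With 1 library a stage and line, the difference between the lines was not tested.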

How the results depend on the processing

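Shares of 48-hour and iHep peaks kept, of kept peaks with 2 or more iHep peaks and of gained peaks within 2 kb are given in that order. An overlap of 50% of the shorter peak gave 71.3%, 39.0%, 20.3% and 29.2%, and peak centres within 200 bp gave 54.7%, 25.1%, 2.15% and 23.6%. The upper 50% of each list by score gave 72.6%, 39.7%, 21.2% and 7.44%, and lists of equal length 54.4%, 62.4%, 16.1% and 12.7%. Joining peaks within 500 bp gave 76.1%, 48.2%, 1.13% and 8.82%, and within 2 kb 77.6%, 52.4% and 0.103%, where the last share cannot be formed. Added after seeing the data, iHep peaks widened and merged where they met gave 45.0%, 27.5% and 24.6% for the last 3. Leaving out 226 dense runs of 5 or more iHep peaks gave 72.8%, 45.4%, 27.9% and 22.5%.

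The median score difference of kept and lost peaks moved to 1.94 with centres and 5.01 at equal length, and that of kept and gained peaks to 6.78 (50% overlap), 5.58 (centres), 5.09 (upper 50%), 3.77 (equal length) and 7.84 (500 bp joined). The width difference at 48 hours reversed to -28 bp with centres and was 141 and 147 bp after joining at 500 bp and 2 kb. In iHep cells it was 48, 139.5, 120, 398 and 427 bp with centres, the upper 50%, equal length and both joinings. Hnf4a at kept iHep peaks stood at 4.59%, 5.57%, 10.1%, 11.7% and 12.6% in the same order and, without dense runs, at 7.01%. At gained peaks it stood at 5.18% (centres), 4.69% (upper 50%), 8.22% (equal length), 7.30% (2 kb joined) and 5.61% (without dense runs). Foxa1 or Foxa2 at lost peaks moved to 3.22% with centres, 4.43% at equal length and 5.14% without Hnf4a peaks of 48 hours, and at kept peaks to 1.63% (50% overlap), 0.899% (centres) and 1.11% (upper 50%). Lost peaks stayed above kept peaks in each alternative run. The causes of these shifts were not tested. The other 48 of 110 recomputed values, all those on autosomes among them, stayed within the interval of the main value. That interval is wide for the range of kept shares over chromosomes, 17.4 points (2.03 to 32.4). On autosomes alone this range was 8.82 points. With 1 library a stage, no replicate could be left out, and depth limits are unknown. No paired analysis was possible because each group holds 1 library.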

Other observations

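Beyond the 48-hour Foxa lists, gained Foxa3 peaks were somewhat more often at iHep Foxa2 peaks than kept ones. Of all iHep Foxa3 peaks 2.01% overlapped an iHep Foxa2 peak. This held for 170 of 7113 gained (2.39%, 2.06% to 2.77%) and 85 of 5548 kept peaks (1.53%, 1.24% to 1.89%). An iHep Foxa1 peak was overlapped by 0.513% of all iHep Foxa3 peaks. The counts were 46 gained (0.647%, 0.485% to 0.861%) and 19 kept peaks (0.342%, 0.219% to 0.534%). These intervals overlap, so the order at iHep Foxa1 peaks is not set. For overlap with an iHep Foxa1 or Foxa2 peak, gained peaks stood higher in the lower 3 of 4 score groups, with overlapping intervals in the third. In the highest group the order is not set, as the intervals overlap widely. In the lowest 25% of iHep scores 2.73% of gained and 0.780% of kept peaks lay at an iHep Foxa1 or Foxa2 peak, and in the highest 25% 1.91% and 2.46%. Hnf4a of the other lines in iHep cells was less frequent at Foxa3 peaks than Hnf4a of the own line. The Foxa1 line's Hnf4a list met 1.28% of all iHep Foxa3 peaks and the Foxa2 line's list 1.75%, from lists of 1580 and 2485 peaks against 2506. In the Foxa1 line kept and gained iHep Foxa1 peaks were at their own Hnf4a in 7.18% and 7.13% of cases, and in the Foxa2 line in 6.33% and 4.58%.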
